A study of Mus musculus with 24 samples.

Results

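The comparison was between transgenic and control colon wall over both treatments of the series, from 16 of its 24 libraries. All libraries whose title names colon were used, 8 from transgenic and 8 from control mice, and the genotype term of a model with treatment as a second term was taken for every gene. Controls carried VilCre, a Cre recombinase under the villin promoter, which is active in gut epithelium. Transgenic mice had the labelled genotype VilCre-CMVcaNrf2, with caNrf2 a constitutively active form of the transcription factor NRF2, so the Cre was shared by both groups. All mice were of the C57Bl/6 strain. Each genotype had 4 libraries of untreated wall and 4 of wall with Dextran Sulfate Sodium (DSS), a polymer that injures the colon lining. The tissue was a 10 mm piece of whole wall taken near the rectum, so that epithelium, muscle, stroma and immune cells were sequenced together. The series text speaks of triplicates, and 4 libraries per group were used here. No label says that the libraries of a group came from separate animals, so the p-values describe the spread among these samples only, which may be technical in part. The sources used here give no age or sex of the mice and no dose or duration of DSS.

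NRF2, encoded by Nfe2l2, is held in the cytoplasm and marked for degradation by its partner KEAP1. When oxidants or electrophiles modify KEAP1, NRF2 accumulates, pairs with small MAF proteins in the nucleus and binds antioxidant response elements near genes of glutathione synthesis, conjugation, quinone reduction, NADPH supply and drug efflux. In the gut these enzymes and pumps handle food-borne and bacterial electrophiles and oxidants.

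The 16 libraries held between 20232309 and 154336039 counts. Markers of colonocytes, the absorptive cells of the colon, had a mean level of 8.81 to 9.96 on the log2(CPM + 1) scale and smooth muscle markers 8.43 to 10.06, where CPM is a gene's count scaled by library size. Markers of pancreas and liver were at 1.02 to 1.81 on the same scale. The library labelled transgenic untreated replicate 2 held the most counts, 154336039, and stood apart from the other 7 transgenic libraries. Over the 41 genes that were higher in transgenic wall, its median log2 difference from the controls of its treatment was 0.22, where the other 3 untreated transgenic libraries were at 2.25, 2.09 and 1.75. The 4 transgenic DSS libraries were at 1.25, 1.62, 2.05 and 2.64, and the 8 controls lay between -0.13 and 0.07. The 41 genes were chosen as higher in these same libraries, and differences were taken from the control means. The separation of the genotypes therefore follows in part from that choice. Transgenic untreated replicate 2 was above all 4 untreated controls for 19 of the 41 genes, and it was kept in its group. Over all genes that share was not counted. Values without it are given beside some of the results it moves. It was singled out after seeing the data, by its low level in the genes that differed. Leaving it out therefore favours a larger genotype difference in such genes.

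**Figure D1:**
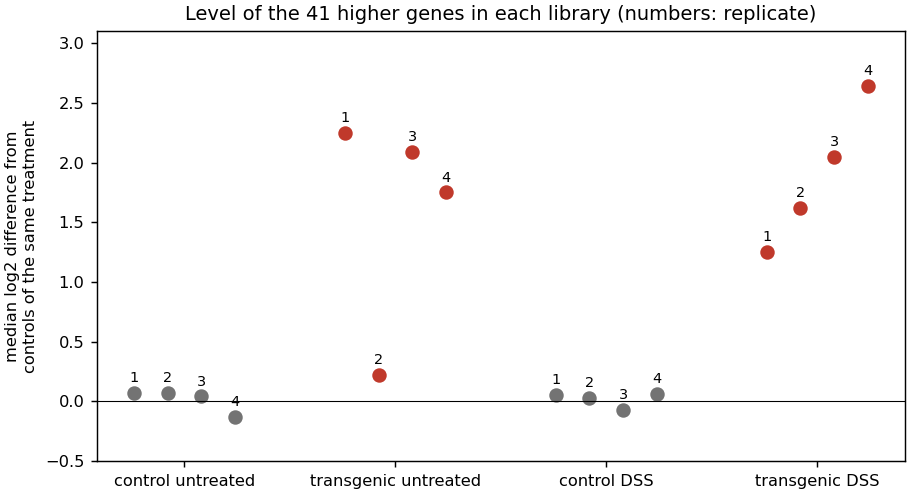
Median over the 41 higher genes of the log2 difference of each library from the mean of the controls with the same treatment; grey points are control and red points transgenic libraries, and numbers are replicates. Transgenic untreated replicate 2 is at 0.22, near the controls, and the other 7 transgenic libraries are at 1.25 or more. The genes were chosen as higher in these same transgenic libraries.

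Nfe2l2 itself (chromosome 2, 75675519 to 75704641, minus strand) was at 99.5 to 168 CPM (median 128) in the control libraries and 148 to 285 CPM (median 196) in the transgenic libraries. Transgenic untreated replicate 2, at 148 CPM, was above all untreated controls and below the highest DSS control, and the ranges of the genotypes overlapped only between the lowest transgenic and the highest control libraries. The fitted difference was a log2 fold change of 0.63 ± 0.13 (SE), or 1.55-fold, and just passed the threshold of 0.05 in edgeR's quasi-likelihood F test (adjusted p = 0.0489). It passed in 4 of the 16 fits that each left out 1 library, with a difference of 0.68 ± 0.13 and adjusted p = 0.0208 without transgenic untreated replicate 2. The sources used here do not give whether transgene reads were counted with this gene.

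Of 16074 genes tested, 44 passed (0.274%), 41 of them higher in transgenic wall (0.255%) and 3 lower (0.0187%). At an unadjusted p below 0.05 there were 660 genes (4.11%), and 44.7% of all genes were fitted above 0, with a median of -0.02. Of the 41 higher genes, 20 belonged to a list of NRF2 regulators, glutathione synthesis and conjugation, quinone and aldehyde reduction, heme breakdown, drug metabolism or efflux. Of the 16074 tested genes, these lists held 14 for NRF2 regulators, 14 for glutathione synthesis, 23 for its conjugation, 19 for reductases and 11 for heme breakdown. They held 17 and 14 in 2 lists of drug metabolism, 24 for carboxylesterases and dehydrogenases and 10 for efflux. Their joint share was not counted. Lists of glutathione peroxidases, thioredoxin, NADPH production and the proteasome had no gene past the threshold. The lists were chosen with earlier results of these data known, which may have favoured the count of 20. All 44 had the same sign in untreated and in DSS-treated wall. The genes were chosen by a term that averages both treatments, which favours a shared sign. The share over all genes was not counted. In 19 of the 44 the 4 transgenic libraries lay beyond the 4 controls in each treatment, where 0.106% of all genes had such separation upward and 0.0311% downward. All 8 transgenic libraries were above all 8 controls for 10 genes in the whole table (0.0622%) and below them for 2 (0.0124%), and these 12 were among the 44. The 10 were Acox2, Pir, Gsta1, Adh7, H60c, Ikbkg, Fetub, Gm3776, Gm10639 and Gm10768, and the 2 were Slc34a2 and 2210407C18Rik. The 44 were chosen by differences between these same libraries, which favours such separation within and across treatments.

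The count of 44 leaned on single libraries. It was 69 without transgenic untreated replicate 2, with 43 of the 44 among them, and 71 without transgenic DSS replicate 1, with all 44 among them. It was 28, 29 and 28 without control untreated replicates 2, 3 and 4, 27 and 26 without transgenic untreated replicates 1 and 3, 26 without control DSS replicate 2, and 27 and 28 without transgenic DSS replicates 3 and 4. The deposited names of 12 wall libraries start with one number and those of 4, replicate 4 of each group, with another, and its meaning has no explanation in the sources used here. Within the 12 libraries 2 genes passed, Acox2 and Gm10639, and 34 passed when transgenic untreated replicate 2 was left out as well. The other 4 libraries, 1 per group, left 1 residual degree of freedom, and each lone library was assumed to vary like the others. In these libraries all 44 genes had the same sign as over the 16. The 4 libraries are part of the 16 that chose the genes, which favours a shared sign. With the number as a term over all 16, 39 genes passed.

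**Figure D2:**
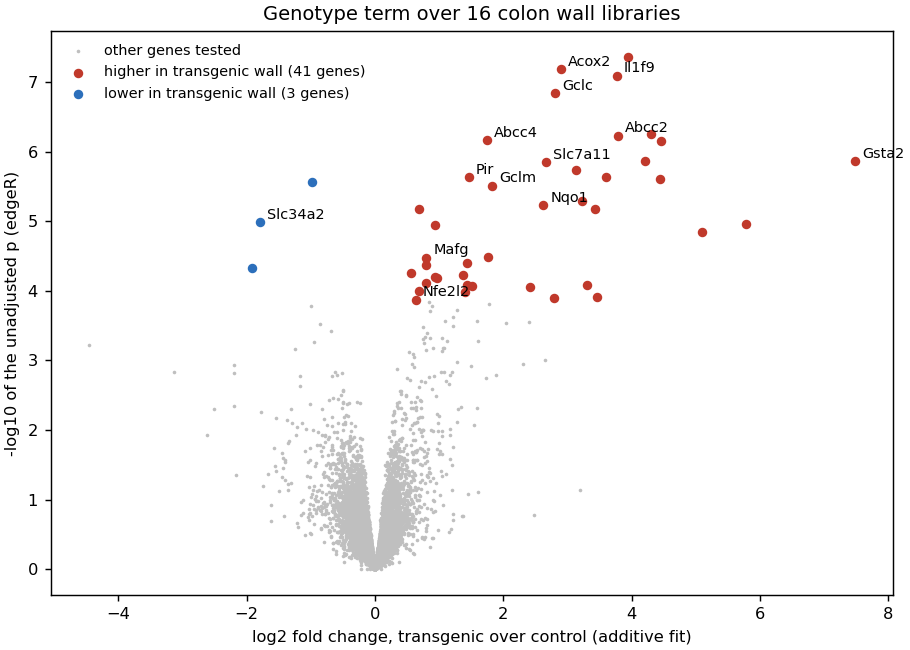
Genotype term of each of the 16074 genes tested: log2 fold change of transgenic over control wall (horizontal axis) against -log10 of the unadjusted edgeR p (vertical axis). The 41 higher genes are red, the 3 lower ones blue and all others grey, and the higher genes reach a log2 fold change of 7.48 in Gsta2.

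The promoter windows of the genes that moved were read for the core of the antioxidant response element, TGACNNNGC, on either strand. Each window ran from 250 bases before to 50 after the gene start in RefSeq (GRCm38.p6), and 37 of the 41 higher genes had one. The core occurred in 10 of the 37 windows (27.0%), in 14.6% of the windows of the tested genes and in 12.5% of all 27025 windows. None of the 3 lower genes had it. The 10 genes were Acox2, Abcc2, Abcc4, H60c, Pir, Gclm, Cyp4f39, Mafg, Slc35d1 and Nfe2l2. A match describes letters and not a bound site, and elements farther from the start were not searched. The windows of 4 of the higher genes are shown because they hold the core in different places and versions, with the core in capitals as it reads on the gene's own strand. The cores of Acox2, Pir and Gclm read TGACTCAGC, TGACTCAGC with TGACTCCGC, and TGACGGTGC on the opposite strand, and that of Abcc2 reads TGACATAGC on the gene's strand.
Acox2 (chr14:8258970-8259269, minus strand): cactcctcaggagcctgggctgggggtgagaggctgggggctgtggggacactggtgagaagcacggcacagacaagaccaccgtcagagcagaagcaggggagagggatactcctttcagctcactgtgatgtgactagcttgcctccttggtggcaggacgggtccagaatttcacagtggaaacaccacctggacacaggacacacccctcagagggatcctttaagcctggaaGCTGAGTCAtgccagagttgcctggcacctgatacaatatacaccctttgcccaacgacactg
Pir (chrX:164269181-164269480, plus strand): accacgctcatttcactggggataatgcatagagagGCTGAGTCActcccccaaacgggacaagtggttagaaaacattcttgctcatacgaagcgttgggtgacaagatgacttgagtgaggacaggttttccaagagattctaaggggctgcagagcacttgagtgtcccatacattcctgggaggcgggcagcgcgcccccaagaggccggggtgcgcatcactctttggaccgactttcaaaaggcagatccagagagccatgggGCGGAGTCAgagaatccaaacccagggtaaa
Gclm (chr3:122245307-122245606, plus strand): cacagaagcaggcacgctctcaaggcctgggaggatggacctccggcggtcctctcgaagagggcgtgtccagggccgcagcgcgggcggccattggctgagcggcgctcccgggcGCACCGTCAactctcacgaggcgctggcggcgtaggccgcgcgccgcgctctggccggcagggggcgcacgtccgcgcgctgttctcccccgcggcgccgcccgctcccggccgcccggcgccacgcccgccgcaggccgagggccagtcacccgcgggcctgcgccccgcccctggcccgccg
Abcc2 (chr19:43782058-43782357, plus strand): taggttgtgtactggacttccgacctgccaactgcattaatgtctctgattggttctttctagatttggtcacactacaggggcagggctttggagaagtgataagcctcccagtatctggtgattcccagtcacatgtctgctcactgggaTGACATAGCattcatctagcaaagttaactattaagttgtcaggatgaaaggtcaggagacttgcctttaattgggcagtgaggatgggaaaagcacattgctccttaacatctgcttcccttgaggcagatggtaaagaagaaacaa
The Acox2 core starts 13 bases before the gene start. The Pir window holds a core 214 bases before and another 20 bases after the start, that of Gclm lies 134 bases and that of Abcc2 98 bases before it.

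Among 14 tested regulators and partners of NRF2, 2 rose, Nfe2l2 and Mafg, and none fell. Mafg, a small MAF partner of NRF2, was at 11.9 to 17 CPM (median 15.1) in the control libraries and 14.1 to 32.4 CPM (median 27.6) in the transgenic libraries, with a log2 fold change of 0.80 ± 0.15 (adjusted p = 0.0197, edgeR). Its lowest transgenic library was transgenic untreated replicate 2, within the control range. Keap1, the inhibitor of NRF2, was at 0.29 ± 0.09 without passing (adjusted p = 0.606), and Sqstm1, the autophagy adaptor that binds KEAP1, was at 0.17 ± 0.13. The median of the list was -0.01, next to -0.02 over all genes.

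Glutathione synthesis and cystine import gave 4 higher genes and none lower of 14 tested, with a list median of 0.17. Gclc, the catalytic chain of glutamate-cysteine ligase, the enzyme that sets the pace of the pathway (chromosome 9, 77754535 to 77794489, plus strand), was at 86.8, 107, 69.8 and 75.8 CPM in untreated control wall and 735, 104, 694 and 381 CPM in untreated transgenic wall. In the DSS groups it was at 72.1, 70.4, 44.6 and 77.2 CPM in control and 315, 529, 630.4 and 847 CPM in transgenic libraries. Every transgenic library but untreated replicate 2, at 104 CPM, was above every control. Its log2 fold change was 2.81 ± 0.33, or 7.03-fold (adjusted p = 0.000577, edgeR), and 2.99 ± 0.21 without that library. Gclm, the modifier chain of this ligase (chromosome 3, 122245592 to 122266648, plus strand), was at 53.2, 55.8, 57.3 and 47.9 CPM in untreated control wall and 255, 45.4, 216 and 179.8 CPM in untreated transgenic wall. In DSS-treated wall the values were 40.2, 46.3, 36.4 and 39.6 CPM in control and 82.8, 124, 191 and 229 CPM in transgenic libraries. The same library was the only transgenic one within or below the controls, and the fitted change was 1.82 ± 0.27 (adjusted p = 0.0029, edgeR).

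Slc7a11, the cystine importer that supplies glutathione synthesis, was at 4.44, 3.77, 2.98 and 2.75 CPM in untreated control wall and 37.2, 4.8, 34.7 and 12.1 CPM in untreated transgenic wall. After DSS the levels were 1.41, 5.48, 2.62 and 5.55 CPM in control and 23.4, 22.7, 20.7 and 29.9 CPM in transgenic libraries. In each treatment the transgenic libraries lay above the controls, and the log2 fold change was 2.67 ± 0.37 (adjusted p = 0.00208, edgeR). Gsr, the reductase that regenerates glutathione, rose by 0.80 ± 0.16 (adjusted p = 0.0353), from a control median of 91.6 to a transgenic median of 168 CPM. It passed in 3 of the 16 fits that left out 1 library, those without control untreated replicate 2, transgenic untreated replicate 2 or transgenic DSS replicate 1.

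**Figure D3:**
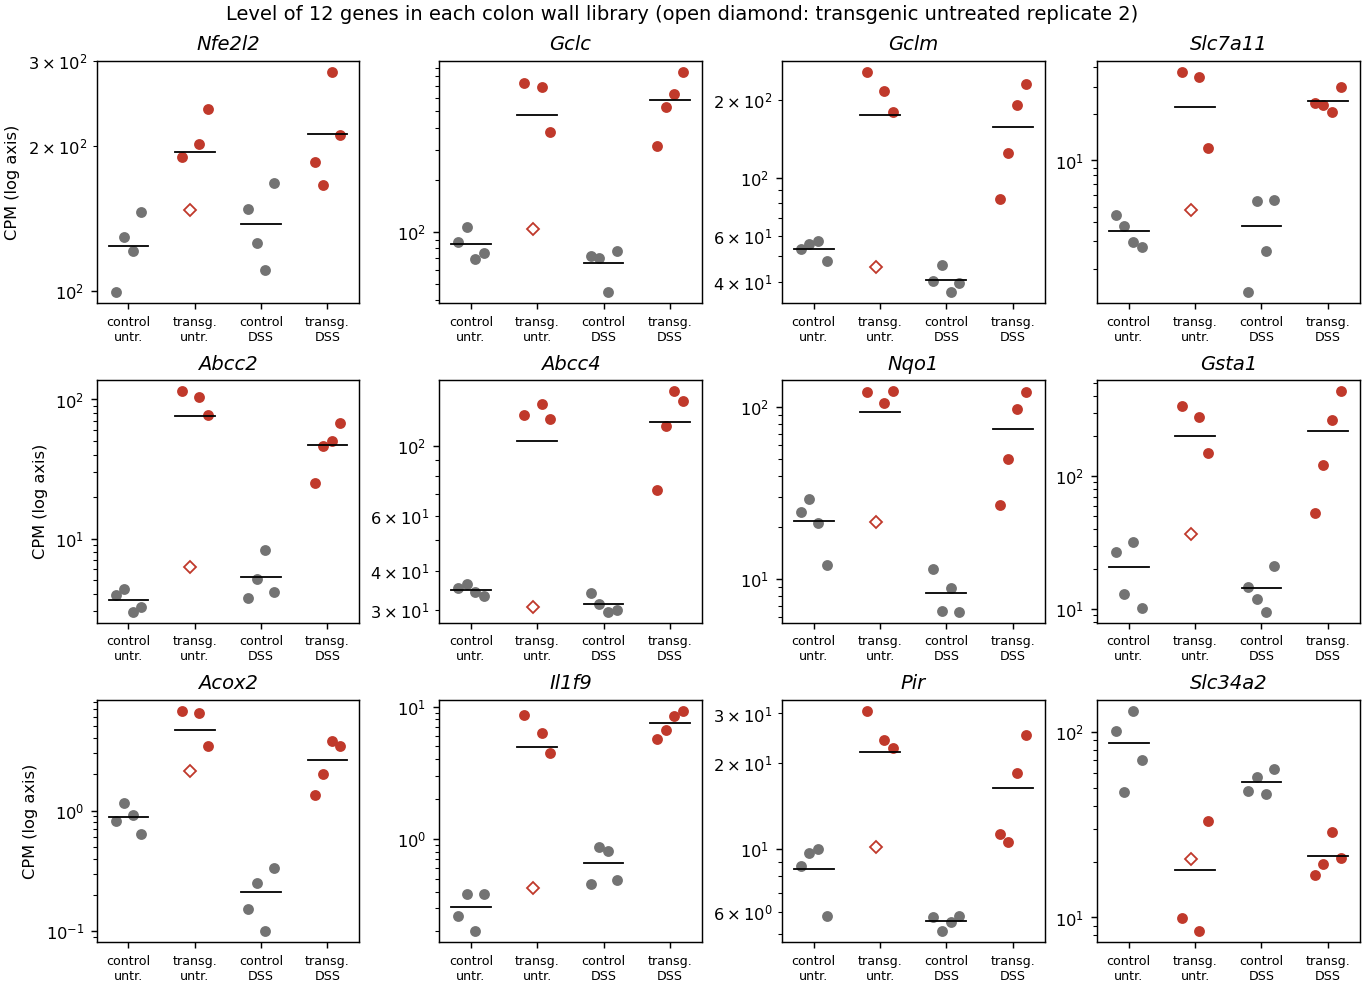
Level of 12 genes in CPM (log axis, a scale of its own per gene) in each colon wall library, grey for control and red for transgenic, with the mean of each group as a bar. Transgenic untreated replicate 2 is the open diamond: it lies with the controls for Gclc, Gclm, Abcc4 and Nqo1, and apart from them for Acox2 and Slc34a2.

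Of 23 glutathione S-transferases, which join glutathione to electrophiles, 3 rose and none fell. The list had 21 members fitted above 0 and a median of 0.38, the highest among the NRF2 pathway lists. Gsta1 (chromosome 9, 78230669 to 78242683, plus strand) was at 9.61 to 32.1 CPM (median 13.8) in the control libraries and 36.8 to 435 CPM (median 207) in the transgenic libraries, with no overlap between genotypes, and its log2 fold change was 3.60 ± 0.50 (adjusted p = 0.00263, edgeR). Gsta2 (chromosome 9, 78331020 to 78347145, minus strand) had 25 counts over all 8 controls and 3203 over the transgenic libraries. Transgenic untreated replicate 2, at 0.0326 CPM, was as low as the controls, and the other transgenic libraries had at least 1.82 CPM. The fitted change of Gsta2 was 7.48 ± 0.99 on the log2 scale (adjusted p = 0.00208, edgeR), the largest among the 44.

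Gene models near them on chromosome 9, in no list, also rose, Gm3776 by 4.30 ± 0.53 (adjusted p = 0.00139, edgeR) and Gm10639 by 3.94 ± 0.43 (adjusted p = 0.000437). These 4 genes have nearly the same sequence in parts: of the 50-base words in its transcripts, Gsta1 shared 82.9% with Gm3776 and 44.6% with Gsta2. With any of the others the share was 92.5% for Gm3776, 48.8% for Gm10639 and 46.8% for Gsta2. How reads were divided among them is therefore uncertain. Gsta3 and Gsta4 shared no such word with them. Gsto1, an omega class enzyme, was at 304 to 468 CPM (median 376) in the control libraries and 442 to 1186 CPM (median 679) in the transgenic libraries and rose by 0.94 ± 0.18 (adjusted p = 0.0304, edgeR). Gstm1, a mu class enzyme, had a difference of 1.28 ± 0.27 that missed the threshold (adjusted p = 0.061, edgeR). It passed in 2 of the 16 fits that left out 1 library, among them that without transgenic untreated replicate 2 (adjusted p = 0.0152).

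Quinone, carbonyl and aldo-keto reductases gave 2 higher genes of 19 tested, with 18 fitted above 0 and a median of 0.28. Nqo1, a quinone reductase and standard readout of NRF2 activity (chromosome 8, 107388225 to 107403205, minus strand), was at 24.6, 29.2, 21.2 and 12.1 CPM in untreated control wall and 124, 21.4, 106 and 124 CPM in untreated transgenic wall. In DSS-treated wall it was at 11.5, 6.54, 8.91 and 6.47 CPM in control and 27.03, 50.3, 98.3 and 123 CPM in transgenic libraries. All untreated controls were above all DSS controls, and transgenic untreated replicate 2 was inside the untreated control range. The log2 fold change was 2.63 ± 0.39 (adjusted p = 0.00498, edgeR). Cbr3, a carbonyl reductase, rose by 2.79 ± 0.55 (adjusted p = 0.0474), with 7.42, 8.11, 6.19 and 8.34 CPM in DSS controls and 29.2, 60.6, 146 and 218 CPM in DSS transgenic libraries. It passed in 2 of the 16 fits that left out 1 library, those without transgenic untreated replicate 2 or transgenic DSS replicate 1. Akr1b8 and Akr1c19, aldo-keto reductases, were at 1.59 ± 0.34 and 1.09 ± 0.24 without passing (adjusted p = 0.0823 for each, edgeR). Each passed in 2 of the 16 fits that left out 1 library, among them that without transgenic untreated replicate 2 (adjusted p = 0.0118 and 0.0386).

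Heme breakdown and iron handling gave 1 higher gene of 11. Blvrb, biliverdin reductase B, was at 18.1 to 30.9 CPM (median 21.9) in the control libraries and 24.6 to 122 CPM (median 63.7) in the transgenic libraries and rose by 1.43 ± 0.26 (adjusted p = 0.023, edgeR). Hmox1, heme oxygenase, was at 0.51 ± 0.30 and Ftl1, the ferritin light chain, at 0.91 ± 0.22, and neither passed (adjusted p = 0.9997 and 0.15). Ftl1 passed in 2 of the 16 fits that left out 1 library, among them that without transgenic untreated replicate 2 (adjusted p = 0.0468, edgeR). Pir, an iron-binding nuclear protein (chromosome X, 164269431 to 164373013, plus strand), was at 8.66, 9.63, 9.95 and 5.82 CPM in untreated control wall and 30.6, 10.1, 24.1 and 22.8 CPM in untreated transgenic wall. The DSS-treated libraries had 5.73, 5.13, 5.54 and 5.78 CPM in control and 11.3, 10.6, 18.4 and 25.2 CPM in transgenic libraries. All transgenic libraries were above all controls, by little in transgenic untreated replicate 2, and the change was 1.46 ± 0.22 (adjusted p = 0.00263, edgeR). Cat, the peroxisomal catalase that breaks down hydrogen peroxide, rose by 0.96 ± 0.19 (adjusted p = 0.0304, edgeR). Its controls were at 62.8 to 88.8 CPM. Transgenic untreated replicate 2, at 71.6 CPM, and transgenic DSS replicate 1, at 80.6 CPM, were within that range. Cat passed in 4 of the 16 fits that left out 1 library.

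Of 10 efflux pumps, which export conjugates and drugs from cells, 3 rose, none fell and 9 were fitted above 0. Abcc2, an apical pump for glutathione and glucuronide conjugates (chromosome 19, 43782308 to 43838218, plus strand), was at 3.93, 4.33, 2.98 and 3.23 CPM in untreated control wall and 114, 6.21, 104 and 77.8 CPM in untreated transgenic wall. In wall with DSS the gene was at 3.74, 5.11, 8.2 and 4.1 CPM in control and 25.1, 46.4, 50.01 and 67.7 CPM in transgenic libraries. Transgenic untreated replicate 2 was above all untreated controls at 6.21 CPM and still far below the other transgenic libraries. The log2 fold change was 3.79 ± 0.47, or 13.8-fold (adjusted p = 0.00139, edgeR).

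Abcc4, a pump for cyclic nucleotides, prostaglandins and drugs (chromosome 14, 118482692 to 118706219, minus strand), was at 35.4, 36.4, 34.2 and 33.3 CPM in untreated control wall and 125, 30.8, 136 and 122 CPM in untreated transgenic wall. In the DSS groups it was at 34.01, 31.4, 29.7 and 30.1 CPM in control and 72.5, 116, 149 and 139 CPM in transgenic libraries. The 8 controls were tightly grouped, transgenic untreated replicate 2 was among them, and the other 7 transgenic libraries lay above. Its change was 1.75 ± 0.23 (adjusted p = 0.00139, edgeR), and 1.90 ± 0.12 without that library. Abcc1, a broad conjugate pump, rose by 0.68 ± 0.11 (adjusted p = 0.00517), and Abcc3, a basolateral one, was at 0.77 ± 0.18 without passing (adjusted p = 0.132). Abcc3 passed in 2 of the 16 fits that left out 1 library, among them that without transgenic untreated replicate 2 (adjusted p = 0.0412, edgeR). Gm10768, a noncoding RNA in RefSeq, starts 584 bases after the end of Abcc2 on the same strand. It rose by 4.46 ± 0.57 (adjusted p = 0.00139, edgeR), and whether its reads came from transcripts of Abcc2 was not tested.

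Few genes of drug metabolism passed. Of 17 cytochrome P450 genes on the list 1 rose, Cyp4f39, an omega-hydroxylase family member, at 0.101 to 1.42 CPM (median 0.469) in the control libraries and 0.968 to 24.4 CPM (median 3.53) in the transgenic libraries, by 3.44 ± 0.54 (adjusted p = 0.00517, edgeR). Cyp2c55, another family member, was at -0.48 ± 0.25. Cyp2c39 and Cyp2a5, which no list held, passed on few reads, with 2 and 8 counts over the controls against 102 and 74 over the transgenic libraries. Of 14 glucuronosyl- and sulfotransferases 1 rose, Ugt1a6a, by 1.37 ± 0.26 (adjusted p = 0.0298). Ugt1a7c, at 0.92 ± 0.25, did not pass (adjusted p = 0.272). Genes of the Ugt1a locus share their last exons, so the split of reads between them is uncertain.

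Of 24 carboxylesterases, aldehyde and alcohol dehydrogenases 3 rose, none fell and 19 were fitted above 0, with a median of 0.20. Adh7, an alcohol dehydrogenase that oxidizes retinol (chromosome 3, 138217773 to 138232042, plus strand), was at 0.676, 0.3, 0.751 and 0.461 CPM in untreated control wall and 4.86, 0.803, 4.87 and 1.54 CPM in untreated transgenic wall. In DSS-treated wall the values were 0.613, 0.75, 0.755 and 0.401 CPM in control and 2.19, 9.79, 18.2 and 12.8 CPM in transgenic libraries. All transgenic libraries exceeded all controls, with transgenic untreated replicate 2 closest to them, and the change was 3.23 ± 0.49 (adjusted p = 0.00455, edgeR). Ces1g, a carboxylesterase, rose by 3.31 ± 0.63 (adjusted p = 0.0357), and Aldh1a1, which makes retinoic acid from retinaldehyde, rose by 1.41 ± 0.28 (adjusted p = 0.0408). Its neighbour Aldh1a7, a close copy, was at 1.22 ± 0.26 (adjusted p = 0.0758), and reads shared by such copies, as in the Ces1, Cyp2 and Sprr2 families, may have been split between them. Aldh1a1 passed in 2 of the 16 fits that left out 1 library, those without transgenic untreated replicate 2 or transgenic DSS replicate 1. Aldh1a7 also passed in 2 of the 16, among them that without transgenic untreated replicate 2 (adjusted p = 0.0209, edgeR).

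Several of the clearest genes were outside these pathways. Acox2, a peroxisomal oxidase of branched fatty acids and bile acid intermediates (chromosome 14, 8225511 to 8259019, minus strand), was at 0.814, 1.16, 0.919 and 0.644 CPM in untreated control wall and 6.7, 2.13, 6.46 and 3.44 CPM in untreated transgenic wall. After DSS the levels were 0.153, 0.25, 0.101 and 0.335 CPM in control and 1.34, 2.02, 3.77 and 3.46 CPM in transgenic libraries. Every transgenic library was above every control, transgenic untreated replicate 2 included. The log2 fold change was 2.90 ± 0.33, or 7.46-fold (adjusted p = 0.000437, edgeR).

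Il1f9, which encodes the IL-1 family cytokine IL-36 gamma (chromosome 2, 24186476 to 24193567, plus strand), was at 0.26, 0.385, 0.202 and 0.383 CPM in untreated control wall and 8.59, 0.424, 6.37 and 4.46 CPM in untreated transgenic wall. In DSS-treated wall it was at 0.46, 0.863, 0.805 and 0.491 CPM in control and 5.74, 6.7, 8.56 and 9.3 CPM in transgenic libraries. In each treatment the transgenic libraries lay above the controls, and transgenic untreated replicate 2 was the only one below 1 CPM. Its change was 3.77 ± 0.43 (adjusted p = 0.000437, edgeR), and it was 4.01 ± 0.63 in untreated and 3.54 ± 0.61 in DSS-treated wall.

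H60c, a ligand of the NKG2D receptor of killer lymphocytes (chromosome 10, 3256208 to 3267771, minus strand), was at 0.0682 to 0.844 CPM (median 0.683) in the control libraries and 0.848 to 8.06 CPM (median 5.39) in the transgenic libraries and rose by 3.13 ± 0.45 (adjusted p = 0.00244, edgeR). Slc5a4b, of the sodium-glucose cotransporter family, was at 0 to 0.329 CPM (median 0.0914) in the control libraries and 0.294 to 5.98 CPM (median 2.6) in the transgenic libraries and rose by 4.20 ± 0.58 (adjusted p = 0.00208, edgeR). The lowest transgenic library of both genes was transgenic untreated replicate 2, just above the controls for H60c and within their range for Slc5a4b. Ikbkg, the regulatory subunit of the kinase complex that activates NF-kappaB, was at 37.6 to 47.6 CPM (median 44.96) in the control libraries and 56.2 to 122 CPM (median 81.3) in the transgenic libraries without overlap and rose by 0.94 ± 0.16 (adjusted p = 0.00751, edgeR). With the highest transcript per gene in place of the sum, the change of Ikbkg was 0.39 ± 0.14 and it did not pass (adjusted p = 0.963, edgeR), while it passed in each of the 16 fits without 1 library. Its span on chromosome X encloses G6pdx, and with no strand setting stated for the counting, reads of such overlapping genes cannot be told apart.

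Smaller changes were fitted for Metap1d, a mitochondrial aminopeptidase, at 0.56 ± 0.11, Slc35d1, a nucleotide sugar transporter, at 0.69 ± 0.14, and B3gntl1, a glycosyltransferase-like gene, at 0.80 ± 0.15. Calr3, a calreticulin family member, rose by 1.77 ± 0.32, Fetub, a fetuin, by 1.51 ± 0.30, and D630045J12Rik by 1.44 ± 0.28. Over these 6 genes edgeR's adjusted p ran from 0.0197 to 0.0407. Genes with few reads were Serpinb11, a serpin, with 3 counts in controls against 84 in transgenic libraries, Sprr2g, a cornified envelope precursor, with 2 against 101, and Glyat, a glycine conjugating enzyme, with 29 against 135. For Serpinb11 74 of the 84 counts, and for Sprr2g 93 of the 101, came from DSS-treated wall, and for Glyat 116 of the 135 came from untreated wall.

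The 3 lower genes were Slc34a2, 2210407C18Rik and Bc1. Slc34a2, a sodium-phosphate cotransporter of epithelia (chromosome 5, 53049353 to 53071663, plus strand), was at 101, 47.4, 129 and 70.7 CPM in untreated control wall and 9.94, 20.6, 8.46 and 33.1 CPM in untreated transgenic wall. The DSS-treated libraries had 48.2, 57.2, 46.2 and 62.9 CPM in control and 16.9, 19.5, 28.9 and 20.9 CPM in transgenic libraries. All 8 transgenic libraries were below all 8 controls, and transgenic untreated replicate 2, at 20.6 CPM, was so too. The fitted change was -1.79 ± 0.29 on the log2 scale (adjusted p = 0.00751, edgeR). 2210407C18Rik was at 11.4 to 18.97 CPM (median 15.2) in the control libraries and 5.19 to 10.3 CPM (median 7.1) in the transgenic libraries, with a change of -0.99 ± 0.15 (adjusted p = 0.00272, edgeR). Bc1, a noncoding RNA, fell on few reads, with 152 counts over the controls and 38 over the transgenic libraries. The fitted change of Bc1 was -1.92 ± 0.36 (adjusted p = 0.0249, edgeR). It passed in 6 of the 16 fits that left out 1 library, over which it lay between -2.07 and -1.78. Without transgenic untreated replicate 2 it did not pass (adjusted p = 0.0539, edgeR). Of the 21 tested genes of colonocyte ion and water transport, Slc34a2 was the 1 that passed. Car1, a carbonic anhydrase of the same list, was at 1.07 ± 0.29 in the other direction without passing (adjusted p = 0.262).

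Other antioxidant groups had no member past the threshold. Of 15 thioredoxin and peroxiredoxin genes 13 were fitted above 0, with a median of 0.12 and 3 higher at an unadjusted edgeR p below 0.05. Srxn1, sulfiredoxin, which reactivates peroxiredoxins, was at 1.04 ± 0.25 (adjusted p = 0.158). Txnrd1, thioredoxin reductase, was at 0.48 ± 0.16 (adjusted p = 0.647) and Prdx1, a peroxiredoxin, at 0.44 ± 0.17. Srxn1 passed in 1 of the 16 fits that left out 1 library, that without transgenic untreated replicate 2 (adjusted p = 0.00818, edgeR). Of 12 NADPH-producing and pentose phosphate genes 8 were fitted above 0, with a median of 0.18 and 4 higher at an unadjusted p below 0.05. Pgd, phosphogluconate dehydrogenase, was at 0.75 ± 0.17 (adjusted p = 0.0902), Taldo1, transaldolase, at 0.79 ± 0.18 and Tkt, transketolase, at 0.60 ± 0.15. Pgd and Taldo1 each passed in 2 of the 16 fits that left out 1 library, among them that without transgenic untreated replicate 2 (adjusted p = 0.0144 and 0.0444, edgeR). The 6 glutathione peroxidases had a median of 0.06, with Gpx2, the epithelial form, at 0.31 ± 0.26. The difference of Gpx2 was -0.32 ± 0.30 in untreated and 0.94 ± 0.30 in DSS-treated wall, and the test between treatments did not pass (adjusted p = 0.477, edgeR). The 32 proteasome subunits had a median of 0.01 and lay between -0.16 and 0.14. Neither of these lists had a member at an unadjusted p below 0.05.

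**Figure D4:**
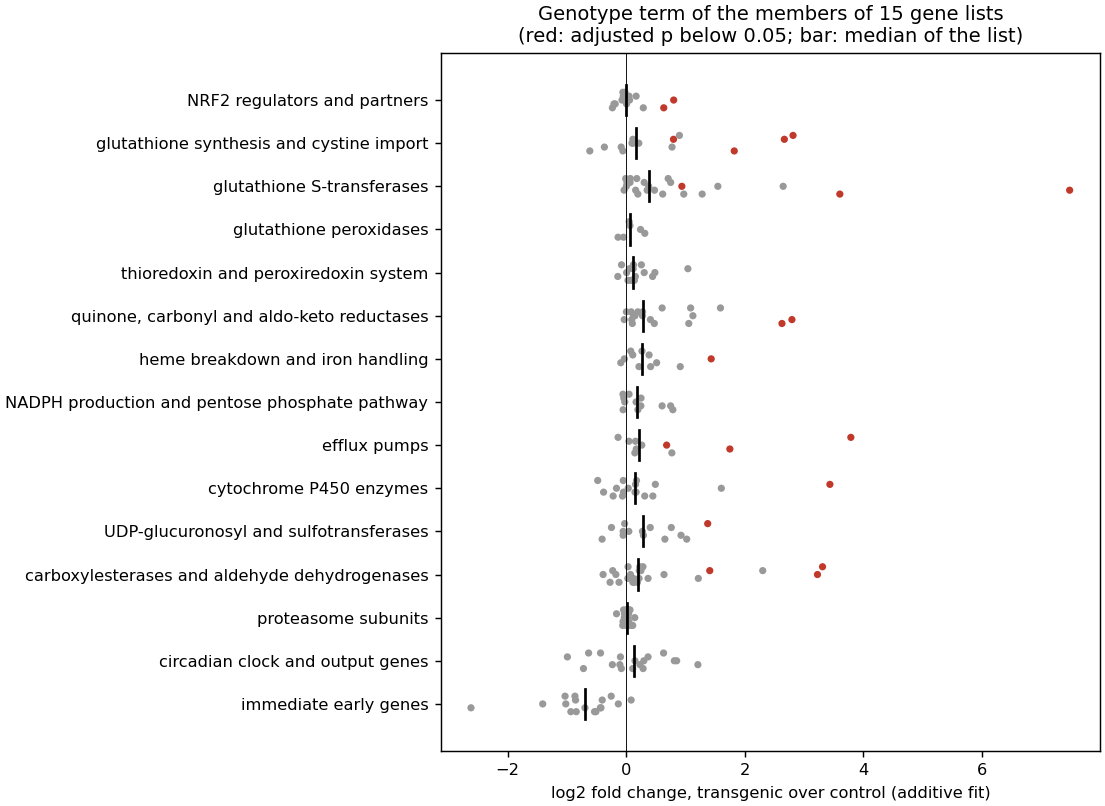
Genotype term (log2 fold change of transgenic over control wall, horizontal axis) of each tested member of 15 gene lists, 1 point per gene, red where the adjusted p was below 0.05 and grey otherwise, with a bar at the list's median. Red points stand to the right in the NRF2 pathway lists, and the lists of glutathione peroxidases, thioredoxin, NADPH, proteasome, circadian and immediate early genes have none.

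No gene passed in the lists of inflammation, defence or cell types, where the shares above 0 varied. Of 17 immediate early genes 1 was fitted above 0, with a list median of -0.70 and 2 genes lower at an unadjusted edgeR p below 0.05. Fosb, a subunit of the AP-1 transcription factor, was at -2.62 ± 0.92 with adjusted p = 0.86. Its level in control DSS replicate 4 was 565 CPM, and no other library was above 77.1 CPM. In untreated wall Fosb was at 77.1, 33.05, 45.6 and 17.2 CPM in controls and 2.83, 1.81, 0.891 and 15.7 CPM in transgenic libraries, without overlap, and its fitted difference was -3.0 ± 1.35 there and -2.25 ± 1.29 with DSS. Upward separation of this kind was found for 3.79% of all genes in untreated wall, and the downward share was not counted. The mean level of the list on the log2(CPM + 1) scale was 5.20 to 5.64 in untreated controls and 4.11 to 4.95 in untreated transgenic libraries, and 4.82 to 7.68 and 5.65 to 6.05 with DSS. The 30 cytokines and chemokines had a median of -0.25 and the 19 antimicrobial and host defence genes -0.43, among them Retnlb, a goblet cell defence protein, at -2.17 ± 0.99, and Duoxa2, which matures an epithelial oxidase, at -0.67 ± 0.27. Retnlb leaned on single libraries: control DSS replicate 1 was at 465 CPM, and no other DSS library was above 50.6 CPM. Over the fits that left out 1 library its difference ran from -2.88 to -0.85. At an unadjusted p below 0.05, 2 cytokine genes were higher and 2 lower, and 3 defence genes were lower. The 26 interferon-stimulated genes had a median of -0.01. Il7, a lymphocyte growth factor, was at 0.65 ± 0.20 (adjusted p = 0.532), 1.19 ± 0.22 in untreated and 0.10 ± 0.22 in DSS-treated wall, and Mt2, a metallothionein that binds metals, at 1.74 ± 0.46 (adjusted p = 0.286).

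Among the clock genes Hlf, an output regulator, was at 0.85 ± 0.23 and Arntl, a core activator of the clock, at -0.72 ± 0.22, without passing (adjusted p = 0.276 and 0.486). The difference of Hlf was 1.39 ± 0.28 in untreated and 0.31 ± 0.27 in DSS-treated wall, and that of Arntl -1.03 ± 0.29 and -0.41 ± 0.29. In untreated wall the genotypes did not overlap for Hlf, Arntl or Il7, and in DSS-treated wall they did. The difference between treatments did not pass for any of these 3 genes (adjusted p = 0.511, 0.825 and 0.437, edgeR). The list of 18 clock and output genes had a median of 0.13.

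No cell type marker passed in any list. Colonocyte markers had a median of -0.03, goblet cell markers -0.12, fibroblast markers -0.06, endothelial markers -0.01, macrophage markers 0.05, and T and NK cell markers -0.25. The 10 B and plasma cell markers had a median of -0.27 with 0 above 0, and the 6 mesothelial markers 0.62 with all above 0. The 5 erythroid markers had a median of -1.20 with 0 above 0, made up of -0.19 in untreated and -1.68 in DSS-treated wall. Their mean log2(CPM + 1) level with DSS was 3.22, 6.91, 10.11 and 4.52 in control replicates 1 to 4. It was 3.75 to 7.89 in transgenic DSS libraries, so the genotypes overlapped and the highest level came from control DSS replicate 3. The 9 adipocyte markers had a median of 0.26 over both treatments, made up of -0.71 in untreated and 2.23 in DSS-treated wall. In untreated wall their level on the log2(CPM + 1) scale was 1.55 to 4.26 in controls and 1.62 to 3.23 in transgenic libraries. In DSS-treated wall it was 2.29 to 3.16 in controls and 3.47 to 4.18 in transgenic libraries, without overlap. Adipoq, an adipocyte hormone, was at 1.41, 1.27, 4.53 and 5.78 CPM in control and 9.89, 16.4, 23.2 and 26.9 CPM in transgenic libraries with DSS, and Cfd, an adipocyte protease, at 9.81, 6.16, 33.8 and 39.4 CPM in control and 62.4, 90.3, 123 and 144 CPM in transgenic libraries. Mesothelial markers in DSS-treated wall were at 2.43 to 4.13 in controls and 3.60 to 4.47 in transgenic libraries. The part of these tissue differences in the genes above was not tested, and in whole wall fewer cells of a type and less RNA per cell cannot be told apart.

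The additive model takes the genotype difference as equal in both treatments, and this was tested gene by gene. No gene of 16074 passed for a difference of the genotype effect between treatments in edgeR (0%), with 1271 at an unadjusted p below 0.05 (7.91%), while DESeq2 gave 40 and voom 116 genes. The smallest adjusted p was 0.0695 over all genes and 0.566 among the 44. A p above the threshold does not show that the effects were equal. The fitted effect of Cbr3 was 1.72 ± 0.61 in untreated and 3.91 ± 0.68 in DSS-treated wall, that of Gm10768 5.53 ± 0.72 and 3.40 ± 0.67, and that of Gclc 2.49 ± 0.45 and 3.13 ± 0.46. Without control untreated replicate 4, 93 genes passed this test, and without transgenic untreated replicate 4, 2 genes passed. Within the 12 libraries that share a name number 101 passed, and 11 when transgenic untreated replicate 2 was also left out.

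**Figure D5:**
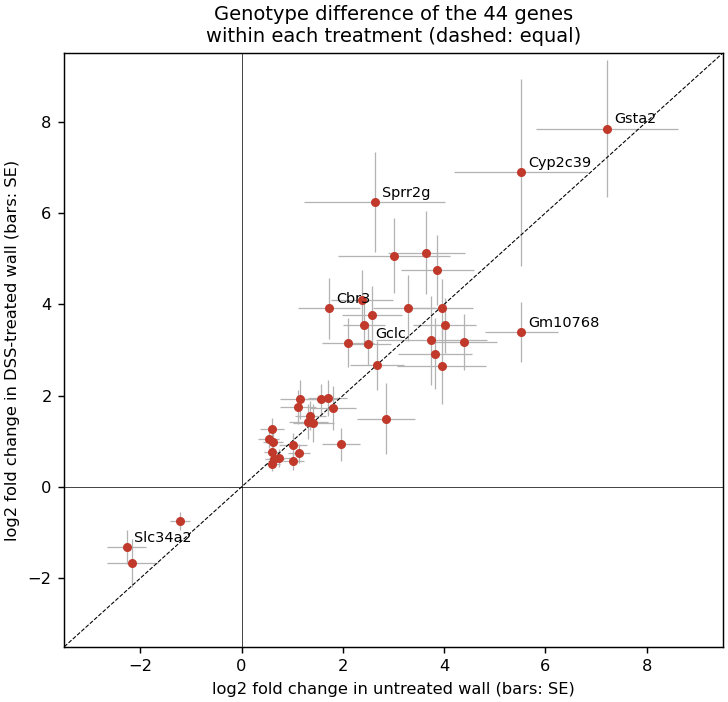
Genotype difference of the 44 genes in untreated wall (horizontal axis) and in DSS-treated wall (vertical axis), as log2 fold changes with SE bars and a dashed line of equality. All 44 points have the same sign in both treatments, with Slc34a2 below 0 and Gsta2 at the upper end. The genes were chosen by a term that averages both treatments, which favours a shared sign.

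The series also holds isolated colon epithelial cells of both genotypes without DSS, 4 libraries each, which did not enter the model. The sources used here do not give whether they came from the same mice. Among them control replicate 3 and transgenic replicate 1 stood apart: Car1 was at 16500 and 18750 CPM in them and at 443.6 to 3320 CPM in the other 6, and Fosb at 21.4 and 28.1 CPM against 639.5 to 1101 CPM. Of the 41 higher genes, 32 had at least 1 CPM on average in these cells, and 31 of the 32 had a higher mean in transgenic cells, next to 50.4% of the 12762 tested genes at that level. Without those 2 libraries, a choice made after seeing the data, it was 30 of the 32, next to 51.0% of all. The average was taken over both genotypes, so a gene could reach 1 CPM through its transgenic level alone, which favours this direction. Gsta2, with a mean of 3.09 CPM in transgenic and 0 in control cells, and Il1f9, with 4.89 and 0.158 CPM, are examples. Gclc was at 404 ± 253 against 112 ± 29.5 CPM (mean ± SD, transgenic against control, n = 4 each), with the highest level, 739.3 CPM, in transgenic replicate 1. Without the libraries that stood apart Gclc was at 293 ± 145 against 98.5 ± 15 CPM (n = 3 each). Over all 8 libraries Abcc4 was at 66.1 ± 23.8 against 18.2 ± 4.75 CPM and Slc7a11 at 36.1 ± 13.6 against 6.49 ± 3.61 CPM. Acox2 was at 12.1 ± 5.14 against 4.61 ± 0.923 CPM and Pir at 25.3 ± 5.68 against 11.8 ± 3.1 CPM. Abcc2, at 1.71 ± 2.56 against 0.765 ± 0.425 CPM, was low in both, and its groups overlapped. Adh7, at 0.297 ± 0.343 against 0.317 ± 0.249 CPM, was below 1 CPM in these cells. Slc34a2, lower in transgenic wall, was at 4.97 ± 4.66 against 7.19 ± 11.1 CPM, a difference within the spread of the libraries. Without the libraries that stood apart, Slc34a2 was at 2.81 ± 2.15 against 1.67 ± 0.398 CPM and Abcc2 at 0.474 ± 0.82 against 0.577 ± 0.241 CPM. The direction of both was thus reversed, while Gclc, Abcc4, Slc7a11, Acox2 and Pir stayed higher in transgenic cells.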

How the data were processed

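Each deposited file holds, per the file headers, an expected count per RefSeq transcript, a posterior estimate of it, TPM and FPKM values, and expression score columns of unstated scale. RSEM 1.2.11, FastQC and mm10 stand in the submitters' processing notes. The sources used here do not give the aligner, strand setting or read filters. The authors' TPM, FPKM and score columns were not used.

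The deposited expected counts (45.2% not whole in wall) were summed over 30383 transcripts to 23329 genes and rounded. The main test was edgeR 4.0.16's quasi-likelihood F test (robust, limma 3.58.1, R 4.3.3) with genotype and treatment terms, TMM scaling, low counts filtered with filterByExpr over the 4 groups and p-values adjusted by Benjamini-Hochberg over all 16074 genes, with a threshold of 0.05 and a common coefficient of variation of 0.26. SE is the size of the log2 fold change over the square root of its F statistic. CPM uses the TMM-scaled library size. List levels are mean log2(CPM + 1), and median differences per library use log2(CPM + 0.1). DESeq2 1.42.0 and voom were alternatives, with other scalings, filters, terms and left-out libraries. Over 24 pairs of libraries within a group, the lowest chi-square per gene was 24, so none was a duplicate. The procedure was tested on simulated data.

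The genes named were Nfe2l2, up to 14 higher and up to 14 lower genes of smallest p past the threshold with a mean of at least 1 CPM (gene models with Gm, Rik or LOC names left out), which gave 14 and 1, and up to 4 per list. The remaining genes past the threshold were named after their values were seen. The comparison, members and lists were chosen with earlier results of these data known. Gene positions are those of mm10.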

Additional observations from a re-analysis of the deposited data

Results flagged for a closer look

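In groups of 4 libraries, the gap between the lowest or highest library and its nearest neighbour was compared with the range of the group, and 3 of 72 groups exceeded Dixon's critical value for 4 samples. Chance flags about 1 in 20 groups. Abcc4 in transgenic untreated replicate 2, at 30.76 CPM, lay far below the other 3 libraries of its group. H60c in the same library, at 0.8485 CPM, did so too. The median log2 level of the 41 higher genes in control untreated replicate 4, at -0.13, lay below the 3 other untreated controls, a small distance beside the transgenic libraries.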

How the results depend on the processing

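Of 2434 gene values under alternatives 1998 kept their side of the threshold, 387 lost it, 46 gained it and 3 reversed, none of them among the 44. The reversed values came from the 4 libraries with the second name number, an alternative chosen after seeing the data, and were -0.48 for Gpx3, 0.09 for Cyp2c55 and -0.20 for Cfd. Of the 44 genes, 24 passed in each of the 16 fits without 1 library, among them all 15 chosen by smallest p. The other genes of the 44 lost the call in at least 1 of those fits. Of 16 fits, Cyp2c39 passed in 15, Calr3 in 10, Mafg in 9, Blvrb and B3gntl1 in 7, and Metap1d and Bc1 in 6. Nfe2l2, Ugt1a6a, Gsto1, Cat, Ces1g and Fetub passed in 4, and Glyat in 4 of the 15 that tested it. Gsr, D630045J12Rik and Slc35d1 passed in 3, and Aldh1a1, Cyp2a5 and Cbr3 in 2.

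The count of 44 genes was 91 with DESeq2, with 82.4% of them higher against 93.2% in edgeR, and 92 with voom and quality weights, with 69.6% higher. DESeq2 included all 44 and voom 24 of them. It was 29 with at least 1 CPM in at least 8 libraries, which tests fewer genes, 2 within the 12 libraries with the same name number and 9 within the other 4. With the highest transcript per gene Ikbkg, Fetub, Glyat, Slc35d1 and Nfe2l2 lost the call (adjusted p = 0.963, 0.293, 0.0555, 0.053 and 0.0732, edgeR). Leaving out each library in turn gave 26 to 71. For the difference of the genotype effect between treatments, 0 genes in edgeR became 40 with DESeq2, 116 with voom, 101 within the 12 libraries, 2 with the highest transcript per gene and 0 to 93 without single libraries. Without transgenic untreated replicate 2, the 12 libraries gave 11, an alternative chosen after seeing the data. Except for the smaller gene set, the cause was not tested.

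With the replicate number as a block 31 genes passed, 30 of them among the 44, and 0 for the difference between treatments. The number is only a name here: libraries with the same number correlated from -0.32 to 0.27, 3 of 24 pairs were above 0.1, and 2 libraries correlated best with their own number. Other scalings, no filter, no treatment term or the name number as a term gave 30 to 53 genes. Genes under about 1 CPM rest on few reads, and their differences are limited by counting error.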

Other observations

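Kdm5d, a Y-linked histone demethylase, had 1438 counts in transgenic DSS replicate 1 and at most 1 in each of the other 15 wall libraries. In the same library the Y-linked genes Ddx3y, Uty and Eif2s3y had 1, 4 and 0 counts, and Xist, transcribed from the inactive X, was at 644.2 CPM, within the range of 142.5 to 723.7 CPM over all 16. That library also had the lowest median level of the higher genes among the DSS-treated transgenic libraries, 1.25.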
